A study of Mus musculus with 8 samples.

Results

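The genes described here serve the lipid droplet of lung mesenchymal cells and mark the lipofibroblast, a fat-storing fibroblast of the alveolar wall. There are 10 of them, chosen by name with earlier results of these data known, namely Pparg, Cd36, Fabp4, Lpl, Angptl4, Plin2, Plin4, Pnpla2, G0s2 and Lipe. Every one had at least 1 array row annotated to it alone, 12 rows in all, among 22180 genes and 41345 rows. RNA came from C57BL/6J mice, 11 weeks old and kept under specific pathogen-free conditions, that had received bleomycin or, as control, phosphate-buffered saline (PBS) into the trachea. Bleomycin, an antibiotic that breaks DNA, is widely used to injure the lung. On day 10, cells negative for CD45 (leukocytes), CD31 (endothelium) and EpCAM (epithelium) were sorted from the lungs, and each group was measured on 4 arrays. The labels do not say whether replicates were separate animals, so each p-value is measured against the spread of these 8 samples alone, part or all of which may be technical.

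A lipid droplet is a core of triacylglycerol and cholesterol ester inside a coat of perilipins. Cells fill it with fatty acids that lipoprotein lipase frees from circulating lipoproteins and that CD36 helps to take up, and empty it through a chain of lipases that begins with the product of Pnpla2. In the lung, lipofibroblasts lie beside alveolar type 2 cells and are held to pass them lipid for surfactant. The nuclear receptor PPARgamma drives this fat-storing programme, and in lung fibroblasts a loss of that programme is classically set against the myofibroblast state.

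Of the 10 genes 6 fell and 1 rose in the bleomycin samples. Pparg, the fatty acid transporter gene Cd36 and the droplet coat gene Plin2 fell. So did the droplet lipase genes Pnpla2 and Lipe, and G0s2, the gene of a lipase inhibitor. These falls lay between 0.43 and 1.51 on the log2 scale. The lipoprotein lipase gene Lpl rose, by 1.62. Fabp4, Plin4 and Angptl4 did not pass the test. A gene is said to rise, fall or pass where its adjusted p was below 0.05 (limma, Benjamini-Hochberg over all 22180 genes). Across all tested genes 17.4% passed, 9.12% being higher and 8.24% lower in bleomycin samples. Control and bleomycin arrays did not overlap in 8 of the 10 genes, against 23.5% of all tested genes. The median log2 difference was -0.61 over the 10 genes and 0.03 over all genes. Since the choice of members and lists followed earlier results of these data, these shares are a description and no test of the group.

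**Figure D1:**
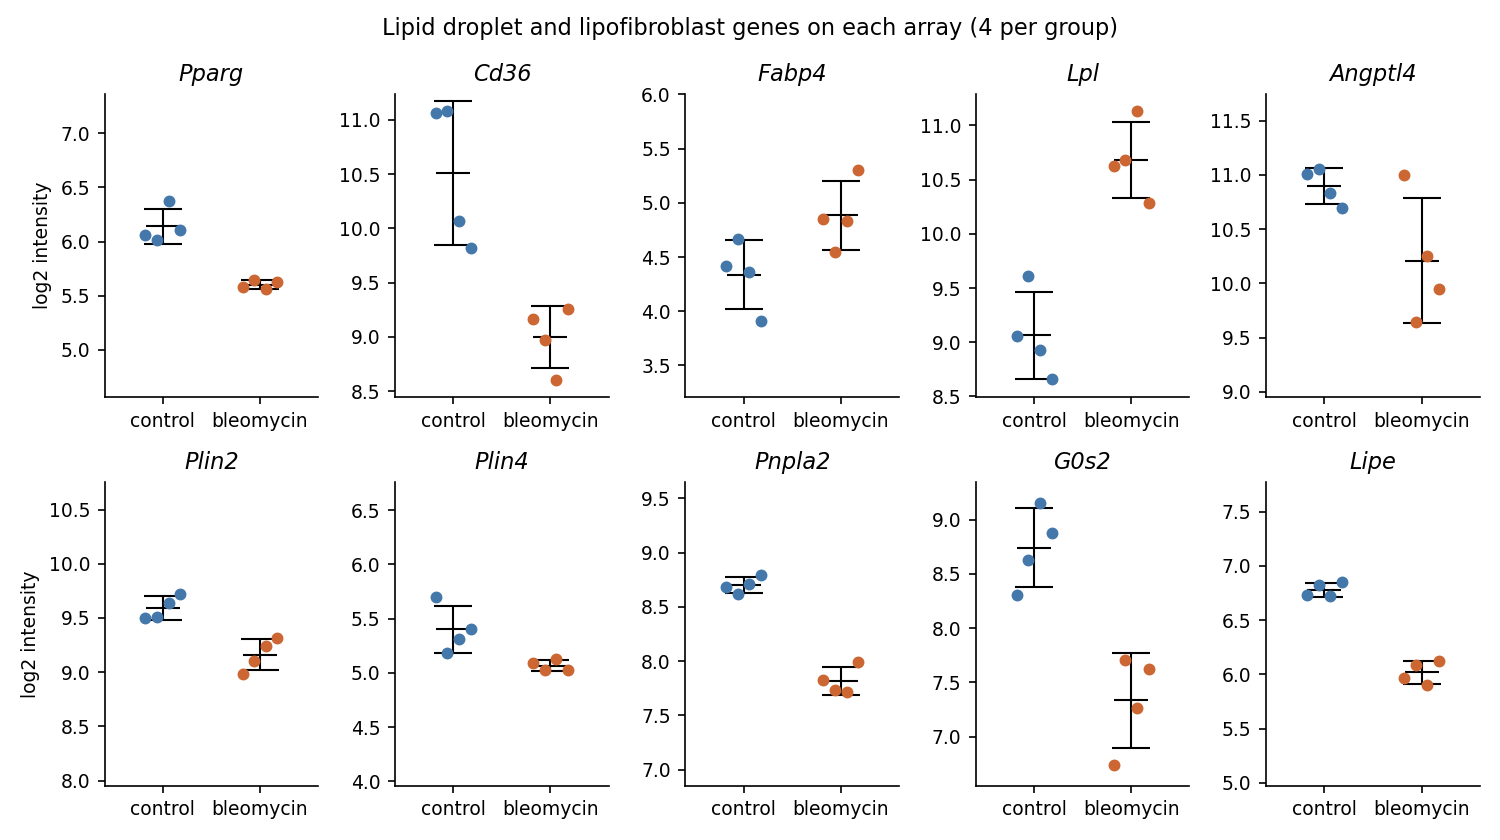
Log2 intensity of each gene on each of the 4 control and 4 bleomycin arrays, with the mean and SD as bars; every panel spans 2.8 log2 units on its own range, and points run from replicate 1 on the left to 4 on the right. Lpl stands higher on every bleomycin array, Pparg, Cd36, Plin2, Plin4, Pnpla2, G0s2 and Lipe stand lower, and Fabp4 and Angptl4 overlap.

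PPARgamma binds DNA with RXR at paired copies of the half-site AGGTCA, and Pparg itself is among the genes that fell. The bases before the start sites of the members were therefore searched for this half-site. Windows of 250 bases upstream of an annotated start came from RefSeq (GRCm38.p6), which gave 10 windows for 7 members. Lpl, Fabp4 and Angptl4 had no window and were not searched. AGGTCA occurred on either strand in 4 of these windows, of 3 genes, and in 14.0% of 32851 windows of the same length. Each of the 4 held 1 copy. No member window held a pair of AGGTCA in the same direction with 1 base between them. Of all windows 0.0335% held such a pair, so its absence from 10 windows says nothing about the members. Imperfect copies and bases further upstream were not searched. The windows of Pnpla2, G0s2 and Lipe, which fell as well, and that of Plin4 held no copy. The 4 windows with a copy are shown 5′ to 3′ along the gene, the half-site in capitals (TGACCT is AGGTCA on the other strand). They are Cd36 at chr5:17835897-17836146 (minus strand), Plin2 at chr4:86670060-86670309 (minus strand) and the first and second start of Pparg at chr6:115360894-115361143 and chr6:115362099-115362348 (plus strand).
Cd36: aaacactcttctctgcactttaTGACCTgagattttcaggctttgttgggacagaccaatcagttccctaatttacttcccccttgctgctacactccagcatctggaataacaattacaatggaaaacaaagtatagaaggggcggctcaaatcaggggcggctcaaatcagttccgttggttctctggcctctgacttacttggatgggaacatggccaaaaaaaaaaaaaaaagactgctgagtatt
Plin2: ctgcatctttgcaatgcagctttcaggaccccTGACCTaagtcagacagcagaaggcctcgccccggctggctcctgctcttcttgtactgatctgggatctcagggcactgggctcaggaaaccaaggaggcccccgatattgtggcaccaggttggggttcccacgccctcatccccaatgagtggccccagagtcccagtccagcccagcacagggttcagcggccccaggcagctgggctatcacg
Pparg, first start: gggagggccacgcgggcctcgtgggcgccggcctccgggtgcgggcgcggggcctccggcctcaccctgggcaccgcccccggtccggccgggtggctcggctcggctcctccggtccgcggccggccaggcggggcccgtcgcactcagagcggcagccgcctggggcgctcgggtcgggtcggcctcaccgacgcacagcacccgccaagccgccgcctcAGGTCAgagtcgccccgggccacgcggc
Pparg, second start: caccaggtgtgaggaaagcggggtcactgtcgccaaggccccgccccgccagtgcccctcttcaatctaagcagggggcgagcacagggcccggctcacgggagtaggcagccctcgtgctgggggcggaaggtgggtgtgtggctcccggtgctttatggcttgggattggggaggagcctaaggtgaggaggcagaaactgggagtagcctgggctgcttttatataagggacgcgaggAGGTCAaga

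The half-site lay 228 bases before the start of Cd36, 218 before that of Plin2, and 28 and 9 before the starts of Pparg, counted from its first base. The last Pparg window, at chr6:115421816-115422065 on the plus strand, held no half-site but 2 copies of the C/EBP motif TTNNGCAA (either strand), a motif present in 9.56% of all windows and in no other member window. It is shown with those copies in capitals because C/EBP factors are known activators of Pparg. Cebpd fell by 0.84, while Cebpb (-0.24) and Cebpa (0.23) did not pass (limma adjusted p of 0.172 and 0.3). Whether any of them acts on Pparg in these cells was not tested. The match is of letters alone, and binding was not measured.
Pparg, last start: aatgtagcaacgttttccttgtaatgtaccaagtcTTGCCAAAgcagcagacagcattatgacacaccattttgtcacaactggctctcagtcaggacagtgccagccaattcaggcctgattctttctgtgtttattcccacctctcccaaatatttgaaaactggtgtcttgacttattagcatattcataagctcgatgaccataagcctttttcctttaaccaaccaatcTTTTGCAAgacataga

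Pparg, the adipogenic nuclear receptor, was lower on every bleomycin array. Its log2 intensity was 6.06, 6.01, 6.37 and 6.11 on control replicates 1 to 4 and 5.58, 5.65, 5.56 and 5.62 on bleomycin replicates 1 to 4. The lowest control array stood 0.36 above the highest bleomycin array. Pparg fell by 0.54 ± 0.10 (log2 difference ± SE, n = 4 each, 95% interval of the difference from -0.75 to -0.32, limma adjusted p = 0.00382), which is 1.45-fold. The call was lost with only 2 arrays per group, at -0.42 for replicates 1 and 2 and -0.65 for replicates 3 and 4 (limma adjusted p of 0.107 and 0.0695). It was also lost with the mean of endothelial (-0.71), epithelial (-0.75) or macrophage (-0.40) marker genes as a covariate, each of which differs between the groups itself (limma adjusted p of 0.0807, 0.224 and 0.31).

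Cd36, which carries fatty acids and oxidised lipoproteins into cells and is also strongly expressed by capillary endothelium and macrophages, showed the largest fall of the 10 genes. It read 11.07, 11.08, 10.07 and 9.82 on the control arrays and 9.16, 8.97, 8.60 and 9.26 on the bleomycin arrays. The control arrays fell into a high pair, replicates 1 and 2, and a lower pair, replicates 3 and 4, with a distance of 1.13 between the pair means. Cd36 fell by 1.51 ± 0.28 (SE, n = 4 each, limma adjusted p = 0.00496), or 2.85-fold. The fall was 2.01 in replicates 1 and 2 alone, where it passed (limma adjusted p = 0.00259), and 1.01 in replicates 3 and 4 alone, where it did not (limma adjusted p = 0.0853). Without control replicates 1 and 2 it was 0.94 and passed (limma adjusted p = 0.0183).

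Blood endothelial markers moved beside Cd36. Over 20 such genes the mean log2 intensity was 8.92, 9.04, 8.14 and 8.02 on the control arrays and 7.45, 7.46, 7.19 and 7.67 on the bleomycin arrays. The same control pair stood high, and bleomycin replicate 3 was lowest and replicate 4 highest, as for Cd36. Of the 20 markers 17 fell and none rose, with a median difference of -1.07, and Pecam1, which encodes the CD31 used to remove endothelium, differed by -1.31. Cd36 minus the endothelial mean lay between 1.80 and 2.14 on the control arrays and between 1.41 and 1.71 on the bleomycin arrays, a difference of -0.42 between the group means. With the endothelial mean as a covariate Cd36 differed by -0.12 ± 0.17 (limma adjusted p = 0.767), and with the mean of macrophage markers, tried after seeing the data, by -2.63 ± 0.37 (limma adjusted p = 0.00849). In these bulk samples fewer cells of a type and less RNA per cell cannot be told apart.

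**Figure D2:**
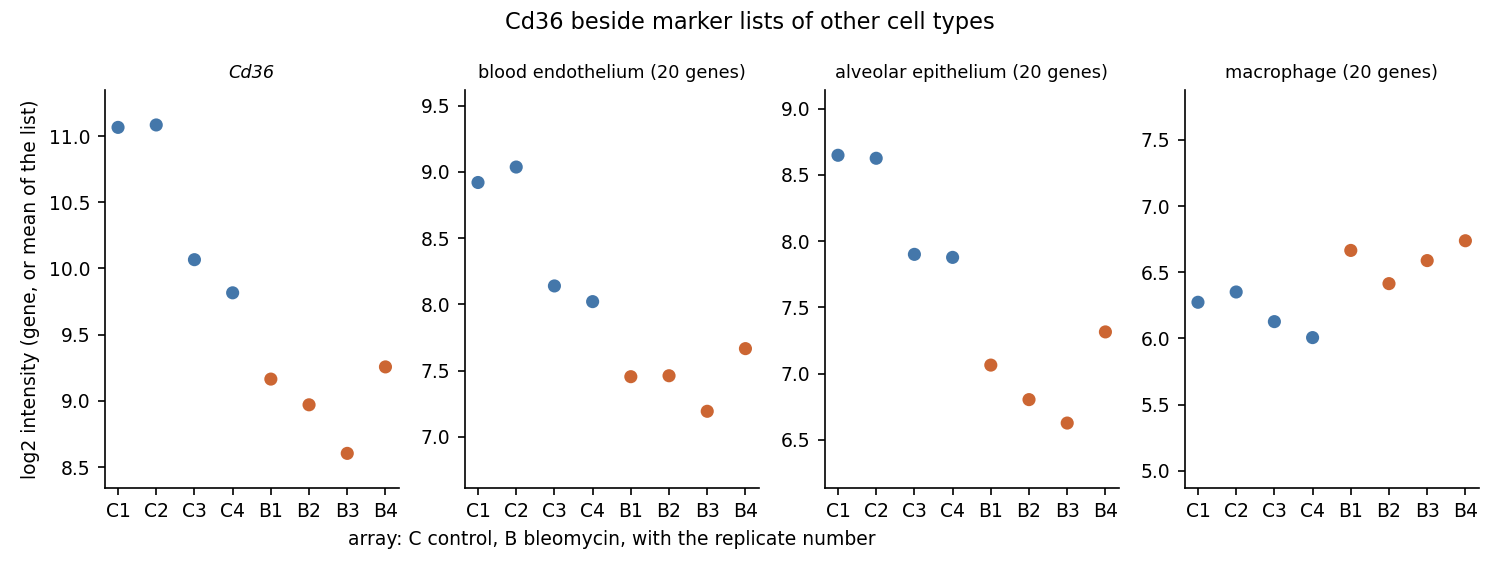
Log2 intensity of Cd36 and mean log2 intensity of 20 blood endothelium, 20 alveolar epithelium and 20 macrophage and monocyte markers on each array; blue points are control arrays (C1 to C4), orange points bleomycin arrays (B1 to B4), and every panel spans 3 log2 units. Control replicates 1 and 2 are highest for Cd36, the endothelial list (8.92 and 9.04) and the epithelial list (8.65 and 8.63), and the macrophage list is higher on all bleomycin arrays.

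Fabp4 encodes the adipocyte fatty acid binding protein, which capillary endothelium and macrophages also make. It read 4.42, 4.66, 4.37 and 3.91 on the control arrays and 4.85, 4.55, 4.84 and 5.31 on the bleomycin arrays. Array medians of rows without an annotated gene were 4.44 to 4.52 on control and 4.20 to 4.35 on bleomycin arrays. Fabp4 stood above that range on every bleomycin array but near it on the controls, so its signal is hard to tell from background. The groups overlapped, and the difference of 0.55 ± 0.18 did not pass (limma adjusted p = 0.0692). It passed without control replicate 2 (0.65, limma adjusted p = 0.0489) and without bleomycin replicate 2 (0.66, limma adjusted p = 0.0429), and was 0.16 in replicates 1 and 2 alone. Macrophage and monocyte markers are given beside it: their mean was highest among controls on replicate 2 (6.35) and lowest on replicate 4 (6.01), and highest among bleomycin arrays on replicate 4 (6.74) and lowest on replicate 2 (6.41), the arrays where Fabp4 was highest and lowest within each group. With that mean as a covariate Fabp4 differed by -0.27 (limma adjusted p = 0.518). That covariate was added after seeing the data and differs between the groups itself. Whether macrophages carry the Fabp4 signal was not tested.

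Lpl, whose product is secreted and frees fatty acids from triacylglycerol-rich lipoproteins at the capillary wall, was the one member that rose. It read 9.06, 9.61, 8.92 and 8.66 on the control arrays and 10.62, 10.68, 11.13 and 10.29 on the bleomycin arrays. All bleomycin arrays stood above all controls, with a gap of 0.68 between the nearest arrays. The rise was 1.62 ± 0.21 (SE, n = 4 each, 95% interval from 1.14 to 2.10, limma adjusted p = 0.0007), or 3.07-fold. A second, dimmer row of Lpl read 5.61, 6.38, 4.90 and 4.60 on control and 8.02, 8.10, 7.02 and 6.29 on bleomycin arrays and also had a higher bleomycin mean, by 1.98 ± 0.46 (limma adjusted p = 0.0143 over all single-gene rows, of which 16.8% passed). There control replicate 2 overlapped bleomycin replicate 4.

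Lpl passed in replicates 1 and 2 alone (1.32, limma adjusted p = 0.0191), in replicates 3 and 4 alone (1.92, limma adjusted p = 0.0369) and with the endothelial mean as a covariate (2.01, limma adjusted p = 0.0464). Lpl is made by macrophages too. Of 20 macrophage and monocyte markers 11 rose and 2 fell. The complement gene C1qb rose by 2.02 and Chil3, an alveolar macrophage gene, fell by 1.44, both named outside the rule as the largest changes each way, while the leukocyte gate gene Ptprc differed by -0.48 (limma adjusted p = 0.0529). The mean of the list ran from 6.01 to 6.35 on control and from 6.41 to 6.74 on bleomycin arrays. With that mean as a covariate Lpl differed by 1.27 ± 0.41 and did not pass (limma adjusted p = 0.139). In these bulk samples the part of such cells in the rise of Lpl cannot be told apart from a rise in mesenchymal cells.

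Gpihbp1, the endothelial protein that anchors lipoprotein lipase in the capillary, fell by 1.05 ± 0.28 (limma adjusted p = 0.0252). It read 7.86, 7.96, 6.88 and 6.84 on control and 6.61, 6.04, 6.05 and 6.66 on bleomycin arrays, with the same high control pair as Cd36. Angptl4, a secreted inhibitor of lipoprotein lipase and a PPAR target, read 11.01, 11.06, 10.83 and 10.70 on control and 11.00, 9.64, 10.25 and 9.95 on bleomycin arrays. Bleomycin replicate 1 lay within the control range and the other bleomycin arrays below it. Its difference of -0.69 ± 0.24 did not pass (limma adjusted p = 0.0774). Without bleomycin replicate 1 it was -0.95 ± 0.15 and passed (limma adjusted p = 0.00403).

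The droplet coat was represented by Plin2, the perilipin of non-adipose cells and a long-used lipofibroblast marker, and Plin4, a perilipin of small droplets. Plin2 read 9.50, 9.51, 9.64 and 9.72 on control and 8.99, 9.10, 9.24 and 9.32 on bleomycin arrays, without overlap. It fell by 0.43 ± 0.10 (SE, n = 4 each, limma adjusted p = 0.0147), or 1.35-fold, the smallest change among the members that passed. It did not pass in replicates 1 and 2 alone (-0.46, limma adjusted p = 0.0931) or 3 and 4 alone (-0.40, limma adjusted p = 0.131), nor with the endothelial (-0.61), epithelial (-0.61) or macrophage (-0.34) mean as a covariate (limma adjusted p of 0.136, 0.332 and 0.423). Plin4 read 5.70, 5.19, 5.31 and 5.41 on control and 5.09, 5.03, 5.12 and 5.02 on bleomycin arrays. These did not overlap, by a margin of 0.06, and the difference of -0.33 ± 0.11 did not pass (limma adjusted p = 0.0663). It passed without control replicate 2 (-0.41, limma adjusted p = 0.0413). Without control replicate 1, the highest array, it shrank to -0.24 (limma adjusted p = 0.142).

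Pnpla2 and Lipe, genes of droplet breakdown, had the smallest SEs of the 10 genes. Pnpla2 encodes ATGL, the lipase that takes the first fatty acid from triacylglycerol. It read 8.68, 8.62, 8.71 and 8.79 on control and 7.83, 7.73, 7.71 and 8.0 on bleomycin arrays. The groups lay 0.63 apart at their nearest arrays, well beyond the SDs of 0.07 and 0.13. Pnpla2 fell by 0.89 ± 0.09 (SE, n = 4 each, limma adjusted p = 0.000194), or 1.85-fold. It passed in replicates 1 and 2 alone (-0.87) and 3 and 4 alone (-0.90), and with the endothelial or the macrophage mean as a covariate (-0.92 each, limma adjusted p of 0.0427 and 0.0317), but not with the epithelial mean (-0.83, limma adjusted p = 0.194).

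Lipe encodes hormone-sensitive lipase, which acts on diacylglycerol after ATGL. It read 6.73, 6.82, 6.72 and 6.85 on control and 5.97, 6.09, 5.90 and 6.12 on bleomycin arrays, again with no overlap. It fell by 0.76 ± 0.09 (limma adjusted p = 0.000296), or 1.70-fold, by 0.75 in replicates 1 and 2 alone and by 0.77 in replicates 3 and 4 alone, and passed in both. With the endothelial or the macrophage mean as a covariate it differed by -0.71 and -0.74 and did not pass (limma adjusted p of 0.0716 and 0.0548).

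G0s2 encodes a small protein that binds and inhibits ATGL, so the enzyme's gene and its inhibitor's gene were both lower. G0s2 read 8.30, 8.63, 9.16 and 8.88 on control and 6.74, 7.71, 7.26 and 7.63 on bleomycin arrays. Bleomycin replicate 1 was the lowest of all, and the groups lay 0.60 apart. The fall was 1.41 ± 0.23 (limma adjusted p = 0.00226), or 2.66-fold. A second, dimmer row read 5.73, 6.12, 6.09 and 6.04 on control and 5.19, 5.91, 5.40 and 5.43 on bleomycin arrays. That row overlapped through bleomycin replicate 2 and differed by -0.51 ± 0.15 (limma adjusted p = 0.0461 over all single-gene rows). G0s2 did not pass in replicates 1 and 2 alone (-1.24, limma adjusted p = 0.0785) and passed in replicates 3 and 4 alone (-1.58, limma adjusted p = 0.0268). With the endothelial, epithelial or macrophage mean as a covariate it differed by -1.85, -2.05 and -0.86 and did not pass (limma adjusted p of 0.0668, 0.154 and 0.319).

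**Figure D3:**
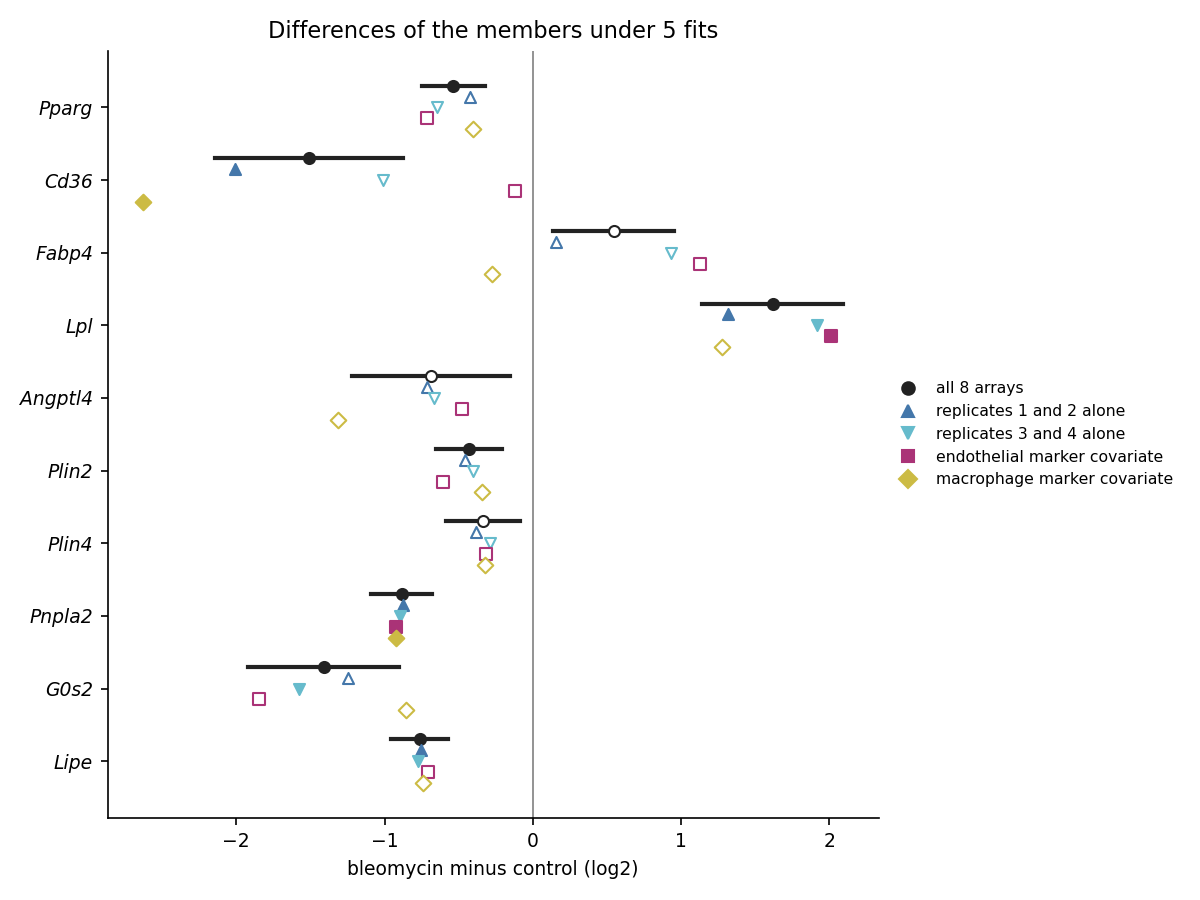
Bleomycin minus control log2 difference of each gene from 5 fits: all 8 arrays (black, with the 95% interval), replicates 1 and 2 alone, replicates 3 and 4 alone, and all arrays with the mean of the endothelial or the macrophage markers as a covariate. Filled symbols passed at an adjusted p below 0.05 and open ones did not; the values of Pnpla2 and Lipe stay close together, and those of Cd36 run from -2.63 to -0.12.

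Alveolar epithelial markers, which the EpCAM gate should remove, also fell in 16 of 20 cases and rose in none, with list means of 7.88 to 8.65 on control and 6.63 to 7.31 on bleomycin arrays. Epcam itself read 4.71 to 5.22 on control and 3.98 to 4.75 on bleomycin arrays (difference -0.57, limma adjusted p = 0.0547). With that list's mean as a covariate none of the 10 genes passed, and Cd36 differed by 0.22. Only 0.158% of all genes passed in that fit, and the covariate differs between the groups itself. Of 14 mesenchyme markers 10 rose and 2 fell. Acta2, the smooth muscle actin of myofibroblasts, and Col1a1 rose by 1.92 and 0.83, and Pdgfra fell by 0.43. Of 9 adipocyte markers none rose and 2 fell, or 22.2%, near the 17.4% of all tested genes. The adipocyte hormone genes Adipoq and Lep, named for their cell type, read at most 3.24 and 4.09, below the medians of rows without a gene.

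Further genes, in 9 lists of lipid genes and of lipofibroblast and adipocyte markers, went down more often than up. The lists held 133 measured genes besides the members. Among them 36 were lower and 9 higher, 33.8% in all, with a median difference of -0.09. Of all tested genes 17.4% passed, and 28.4% and 37.2% did so without the dimmest 30% and 50% of genes. The lists were not recounted in those 2 settings. The lipofibroblast marker list held 14 of the 36 falls among its 18 genes and no rise, with a median difference of -0.61. Of that list 77.8% passed, whereas the shares of the other lists ran from 15.4% to 40%. The pooled share thus leans on the lipofibroblast markers. Lepr, the leptin receptor, fell by 1.79 ± 0.15, the amino acid transporter Slc7a10 fell by 1.67 ± 0.29 and the methyltransferase Inmt fell by 1.26 ± 0.20. Lepr read 10.29, 10.33, 10.55 and 10.21 on control and 8.25, 8.77, 8.34 and 8.89 on bleomycin arrays, with no high pair among the controls. Pth1r, the receptor through which parathyroid hormone-related protein promotes the lipofibroblast state, was named outside the rule and differed by 0.54 (limma adjusted p = 0.0613). With quantile normalization 13 genes of the list fell and 1 rose. The list also holds alveolar fibroblast genes with no known part in lipid handling.

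Of 18 further droplet coat and lipolysis genes 3 fell and 1 rose (2 and 2 with quantile normalization). The main fit thus called 22.2% of the list, near the 17.4% of all tested genes. Hsd17b11, a droplet enzyme, fell by 0.79, Fitm2, which is needed for droplets to form, by 0.72, and the droplet fusion gene Cidec by 0.37, while the lipase gene Pnpla3 rose by 0.56 (limma adjusted p at most 0.0306). Abhd5, the activator of ATGL, differed by -0.15 (limma adjusted p = 0.333), Plin1, the adipocyte perilipin, by -0.05 (limma adjusted p = 0.76) and Mgll, the last lipase of the chain, by 0.46 (limma adjusted p = 0.0504). These 3 were named outside the rule, for their place beside Pnpla2 and Plin2.

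Of 15 genes of triacylglycerol synthesis 5 fell and 1 rose, or 40%, against 17.4% of all tested genes. The phosphatidate phosphatases Lpin1 and Lpin3 fell by 0.90 ± 0.10 and 0.59 ± 0.11 and the acyltransferase Dgat2 by 0.64 ± 0.18, and the acyl-CoA synthetase Acsl4 rose by 0.72 ± 0.18 (limma adjusted p at most 0.0322). Lpin1 read 9.04, 9.24, 8.91 and 8.98 on control and 7.97, 8.18, 8.13 and 8.29 on bleomycin arrays, well apart. Of 17 genes of fatty acid uptake and lipoprotein handling 3 fell and 1 rose, or 23.5%, near the share of all genes. Besides Gpihbp1, the lipoprotein receptor Vldlr and the caveolin Cav1 each fell by 0.79, and the fatty acid transport protein Slc27a6 rose by 0.80 ± 0.10. Cav1, too, is an endothelial gene.

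Among 21 adipogenic transcription factors and cofactors 4 fell and 3 rose, and with quantile normalization 3 fell. The main fit thus called 33.3% of the list, against 17.4% of all tested genes. Klf15, a glucocorticoid-induced factor of fat cells, fell by 1.50 ± 0.16, Klf4 by 1.10 ± 0.14 and Cebpd by 0.84 ± 0.12, whereas Klf5 rose by 0.80 ± 0.21 and the preadipocyte factor Zfp423 by 0.52 ± 0.12 (limma adjusted p at most 0.0275). Klf15 read 8.11, 8.04, 7.95 and 7.98 on control and 6.29, 6.54, 6.25 and 7.03 on bleomycin arrays. Bleomycin replicate 4 was nearest the controls there. Cebpa, named outside the rule as the usual partner of Pparg, differed by 0.23 (limma adjusted p = 0.3).

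Of 17 further PPAR targets 4 fell and none rose (3 and 1 with quantile normalization). The main fit thus called 23.5% of the list, near the 17.4% of all tested genes. The falls were Acot1 by 1.03, Pdk4 by 0.85, Acadm by 0.82 and Cidec by 0.37. Mitochondrial fatty acid oxidation held 4 falls and 1 rise among 16 genes, or 31.25%. Acadm, the electron carrier gene Etfa by 0.71, Acaa2 by 0.64 and Hadh by 0.56 fell. The carnitine acyltransferase Cpt2 rose by 0.31, though not with the arrays centred on their medians. Of 13 genes of fatty acid synthesis 2 passed, a share below that of all genes, as Elovl6 rose by 0.84 and Fads2 by 0.29. The list's median was -0.08, and with the arrays centred on their medians 1 rose and 3 fell. Of the 9 adipocyte markers Slc36a2 fell by 0.81 and Cidec, again, by 0.37 (1 fell with quantile normalization). Acadm and Cidec each stand on more than 1 list.

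**Figure D4:**
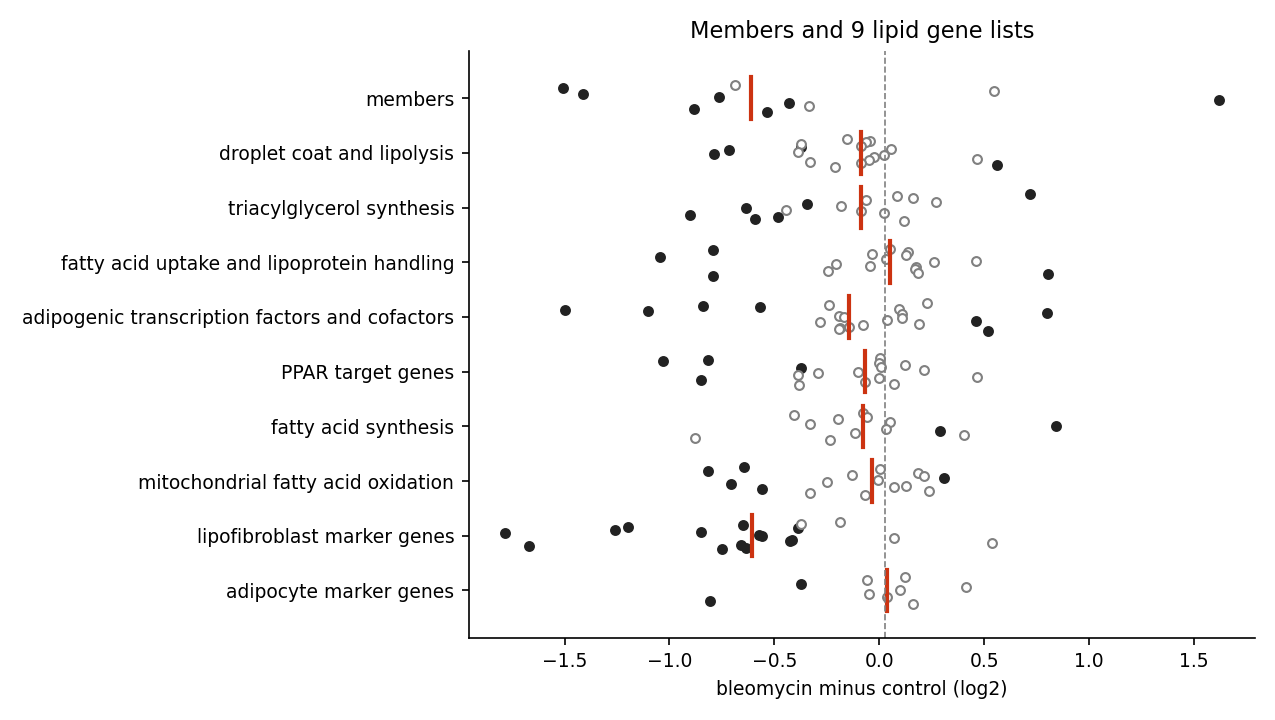
Bleomycin minus control log2 difference of every measured gene of the 10 members and of the 9 lipid gene lists; filled points passed at an adjusted p below 0.05, open points did not, red bars are list medians and the dashed line is the median of all tested genes (0.03). The lipofibroblast markers and the members have medians of -0.61, and the other lists lie between -0.15 and 0.05.

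For each member that passed, the genes whose profile over the 8 arrays lay nearest were found, as the smallest root mean square distance between log2 profiles after subtracting each gene's own mean. The distance covers both the difference between groups and the spread within them. Nearest to Cd36 were Adgrl4 (0.09), an adhesion G protein-coupled receptor gene, Bmp6 (0.12) and the transcription factor gene Gata2 (0.12). All 3 had control replicates 1 and 2 above replicates 3 and 4, with Adgrl4 at 9.21, 9.05, 8.07 and 7.97 on control and 7.06, 6.94, 6.63 and 7.20 on bleomycin arrays. Nearest to Lpl were Rftn1, the protease gene Adamts12 and Hacd4, at 0.20, 0.20 and 0.21. G0s2 lay nearest Fam222a (0.11), Syt17 (0.17) and Ppp4r4 (0.17).

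Pnpla2 lay nearest Bbs9 (0.09), Chst7 (0.09) and Lin52 (0.10), Pparg nearest Trim39 (0.06), Atf6 (0.07) and Map3k3 (0.07), Lipe nearest Pcf11 (0.05), Mmp27 (0.06) and Ctdspl (0.07), and Plin2 nearest Ccdc88c, Mob2 and Dcaf11 (0.04 each). No gene was in the nearest 3 of more than 1 member.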

How the data were processed

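RNA was labelled as biotinylated cRNA from 100 ng of total RNA by the Affymetrix protocol, per the labels' protocols. The deposited values are 1 number per row and array, taken as log2 intensities because they run from 0.24 to 13.6. How the authors corrected background, summarised probes and normalized is not given in the sources used here. The values were used as deposited. The number of arrays limits the precision. Of 41345 rows, 23521 had 1 gene in the probe annotation, and each of 22180 genes was represented by its brightest row over all 8 arrays.

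Groups came from the sample titles. A two-sided comparison across all genes used lmFit and eBayes of limma 3.58.1 under R 4.3.3. P-values were adjusted by the Benjamini-Hochberg method, with a threshold of 0.05. The fit was tested on simulated data. Second rows of members came from the same fit over all single-gene rows. Rows with several genes (1814) or none (16010) were left out. Figures were drawn with matplotlib 3.10.9.

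The members and lists were chosen with earlier results of these data known. Besides the members, text names, from each lipid list, up to 3 passing genes in the majority direction by size and 2 in the other, or all where 5 or fewer passed. It also names Ptprc, Pecam1 and Epcam, Pdgfra, Col1a1 and Acta2, and 3 nearest profiles per passing member. Of 150 genes on the lipid lists, members and repeats aside, 133 were measured. The other marker lists held 10 to 22 genes each. Of 10 mesothelium genes 1 fell and none rose, or 10%, against 17.4% of all tested genes. Array medians of the tested genes lay within 0.071 of each other. The alternatives were a replicate block, pairs of replicates, quantile normalization, median centring, dim genes left out, other row choices, variance models and array weights, marker covariates, arrays left out and a threshold of 0.01. The macrophage covariate was added after seeing the data. Sequences are RefSeq's, build GRCm38.p6.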

Additional observations from a re-analysis of the deposited data

How the results depend on the processing

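With all 10 genes as reported, 6 fell and 1 rose. With a replicate block, and with replicates 1 and 2 against 3 and 4 as a term, the counts were again 6 and 1. Deviations from the group means correlated by 0.129, 0.0631, 0.114 and 0.0647 across genes for replicates 1 to 4. Single replicate numbers did not pair the samples, as control replicate 2 correlated best with bleomycin replicate 1. Control replicates 1 and 2 did go with bleomycin replicates 1 and 2, and 3 and 4 with 3 and 4. Those correlations ran from 0.0631 to 0.129, and the ones across the pairs from -0.14 to -0.0667. With the pair term 20.1% of all genes passed. In replicates 1 and 2 alone and in replicates 3 and 4 alone 3 members fell and 1 rose, where 7.53% and 3.26% of all genes passed. Quantile normalization, and leaving out the dimmest 30% of genes, gave 2 rises, Fabp4 being the second. Leaving out 1 array at a time gave 1 to 2 rises and 6 to 7 falls, and the calls of Cd36, Lpl, Pnpla2, G0s2, Plin2, Pparg and Lipe held each time. Plin4 also passed with median centring and without the dimmest 30%, and Angptl4 without the dimmest 50%. With quantile normalization Plin4 differed by only -0.25 (limma adjusted p = 0.162). Plin2 alone of the 7 lost its call at 0.01.

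The covariates differ between the groups, so the fits with them tell group and covariate apart poorly. A lost call need not mean a smaller difference. Under the endothelial mean Pparg went from -0.54 ± 0.10 to -0.71 ± 0.17 and G0s2 from -1.41 ± 0.23 to -1.85 ± 0.42. Lipe went from -0.76 ± 0.09 to -0.71 ± 0.16, and Cd36 from -1.51 ± 0.28 to -0.12 ± 0.17. With the endothelial mean 1 member fell and 1 rose, and 1.47% of all genes passed. With the epithelial mean 0 members fell, 0 rose and 0.158% of all genes passed, and Cd36 differed by 0.22 (limma adjusted p = 0.794). With the macrophage mean 2 fell, 0 rose, 3.09% of all genes passed and Fabp4 differed by -0.27. The 36 falls and 9 rises on the lipid lists became 3 and 0 with the endothelial mean. Without control replicates 1 and 2 they became 28 and 5, where 9.91% of all genes passed. Fabp4 and the adipocyte hormone genes lie near or below the level of rows without a gene, so their differences are the least certain. That level was 4.44 to 4.52 on control and 4.20 to 4.35 on bleomycin arrays. Pnpla3, Cidec and Plin4, with control means of 4.81, 5.14 and 5.40, stood little above it, so their differences are uncertain too. Of 24 groups of 4 arrays over the members' 12 rows, 0 held an array set apart from the other three by Dixon's criterion.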
